A study of Mus musculus with 12 samples.

Results

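The cells described here were joint fibroblasts of the mouse hind limb that carried transcripts of Pi16 and Dpp4 and of the genes that accompany them. Members were chosen by detected transcripts, counting a gene as detected at 1 or more unique molecular identifiers (UMIs, tags that count an RNA molecule once). A cell needed more than 500 and fewer than 5000 detected genes and at least 4 of the 7 fibroblast genes Dcn, Gsn, Lum, Fbln1, Pdpn, Pdgfra and Serpinf1. It also needed at least 3 of the 6 genes Pi16, Dpp4, Stmn4, Efhd1, Wnt2 and Cadm3. Of 21042 deposited cells, 20213 were within the limits on detected genes, 16430 of these passed the fibroblast gate, and 1407 were members, which is 8.56% of the gated fibroblasts and 6.96% of the cells. The remaining 15023 gated fibroblasts served as the main comparison.

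The study followed serum transfer-induced arthritis (STIA), in which serum of arthritic K/BxN (KRN) mice injected into a vein sets off a joint inflammation that later resolves by itself. All libraries came from wild-type (WT) C57BL/6 mice and held live CD45-negative (CD45neg) cells, that is cells without the surface protein of blood leukocytes. The mice were young adult males. Cells were sorted from digested hind limb joints and captured by 10x Genomics 3′ chemistry. There were 4 labels with 3 libraries each: rest (day 0, untreated), peak (days 7 to 9 after serum), resolving (day 15) and resolved (day 22). Each library pooled the joints of 3 animals, so that a library and not a mouse was the replicate, and the digest also freed cells of bone, cartilage and tendon.

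Fibroblasts of the synovium, the tissue that encloses a joint cavity, form a lining layer at the cavity, which secretes the lubricant Prg4, and a sublining behind it, which holds the vessels and loose connective tissue. Pi16 encodes a secreted peptidase inhibitor family member and Dpp4 (CD26) a cell surface peptidase. Fibroblasts carrying both are known from many organs, where they sit in the outer sheath of vessels and in fascia, share Cd34, Ly6a, Cd55, Cd248 and elastic microfibril genes, and are regarded as a little-specialised fibroblast state. Of the other rule genes, Wnt2 encodes a secreted Wnt ligand, Stmn4 a stathmin that binds tubulin, Efhd1 a calcium-binding mitochondrial protein and Cadm3 a cell adhesion protein.

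Before the results, 2 facts about the libraries bear on all of them. First, the deposited barcodes carry a running number from 1 to 12 as their suffix, and the libraries resembled each other by runs of that number rather than by label. Over 7627 genes summed over members, the most similar library had a suffix of the same run of 3 (1 to 3, 4 to 6, 7 to 9 or 10 to 12) for 9 of 12 libraries, and the same label for 1 of 12. In suffix order the libraries were rest replicate 1, peak replicate 1 and resolving replicate 1 (suffixes 1 to 3), then resolved replicate 1, rest replicate 2 and peak replicate 2 (4 to 6). After these came resolving replicate 2, resolved replicate 2 and rest replicate 3 (7 to 9), and peak replicate 3, resolving replicate 3 and resolved replicate 3 (10 to 12). What the runs stand for is not given in the labels, and they are used here only as a description by suffix. Whether each file belongs to the sample it is deposited under was not tested, so every value given by label below rests on the labels as deposited. They were noticed in the same libraries that are compared below, so the tests between runs are not independent of how the runs were found. Second, the median was 5358 UMIs per deposited cell in every one of the 12 libraries, and whether the libraries were brought to a common depth before deposit is not given in the sources used here. No barcode with its suffix was shared between libraries. The members of a library held 149281 to 1829881 UMIs in all, from 27 to 247 cells.

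The 6 rule genes chose the members, so their levels describe the choice and test nothing. Pi16 was detected in 90.0% of members and 27.3% of other gated fibroblasts, Cadm3 in 80.4% of members and 11.5% of other gated fibroblasts, and Efhd1 in 67.9% of members and 5.30% of other gated fibroblasts. Dpp4, Stmn4 and Wnt2 were sparser, in 52.9%, 38.3% and 33.5% of members against 2.94%, 1.86% and 1.50% of the others. Pi16 and Dpp4 were found together in 645 members (45.8%), and the pair seen most often was Pi16 with Cadm3, in 1003 members (71.3%). In endothelial cells, which should lack Pi16, 5.81% had at least 1 Pi16 UMI at a median of 3111 UMIs per cell, beside medians of 6000 UMIs in members and 5927 in other gated fibroblasts. With cells thinned to 2000 UMIs, leaving out 5 members, 212 other gated fibroblasts and 201 of 1773 endothelial cells of lower depth, the shares with Pi16 were 76.1%, 16.7% and 2.99% in members, other gated fibroblasts and endothelial cells. Of 1773 endothelial cells 1 held 3 or more of the rule genes, and of 3783 cells outside the fibroblast gate 38 did.

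The threshold of 3 genes cut through a continuous range. Gated fibroblasts fell from 9037 cells with none of the 6 genes to 4394 with 1, 1592 with 2, 775 with 3, 416 with 4, 179 with 5 and 37 with all 6. Cells just outside the threshold had a median of 5735.5 UMIs and those just inside 5931, so the members at the edge were about as deep as the cells they were cut from. By genome position (GRCm38), the annotation places Pi16 on chromosome 17 from 29317680 to 29330593 on the plus strand, Dpp4 on chromosome 2 from 62330073 to 62412231 on the minus strand and Wnt2 on chromosome 6 from 17988940 to 18030585 on the minus strand. It places Stmn4 on chromosome 14 from 66344296 to 66361680 on the plus strand, Efhd1 on chromosome 1 from 87264363 to 87310839 on the plus strand and Cadm3 on chromosome 1 from 173333258 to 173367695 on the minus strand. All 6 are annotated as protein coding.

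**Figure D1:**
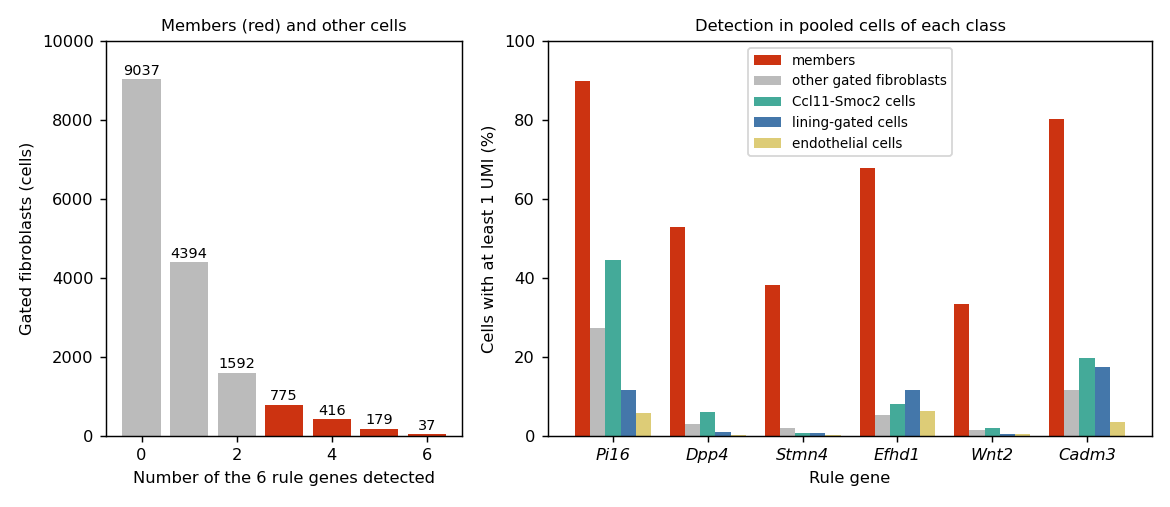
Left, gated fibroblasts (cells, y axis) by how many of the 6 rule genes had at least 1 UMI, with members in red. Right, percent of cells with at least 1 UMI of each rule gene in members, other gated fibroblasts, Ccl11-Smoc2 cells, lining-gated cells and endothelial cells, all libraries pooled. Each rule gene was detected in a larger share of members than of any other class, which the rule itself brings about.

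The label as sublining fibroblasts was set against markers the rule did not use. Cd34 and Thy1 are surface proteins used to mark sublining fibroblasts. Cd34 was at 1154 ± 312 against 277 ± 105 CPM in members against other gated fibroblasts. Here and throughout, values with ± in CPM are the mean and SD over 12 libraries of summed UMIs scaled to a common library total. Thy1 was at 383 ± 100.1 against 131 ± 39.4 CPM. A list of 13 other sublining genes went the other way, compared without cells that carried several markers of another class. Of these genes 10 were lower in members past the threshold given below and none was higher. Sublining markers were thus divided between members and other gated fibroblasts. Lining genes were lower in members: Prg4 was at 1842 ± 1744 against 8803 ± 5744 CPM and Clic5 at 6.63 ± 10.5 against 39.8 ± 27.1 CPM. At least 1 Prg4 UMI was present in 76.5% of members, but also in 77.3% of other gated fibroblasts and 45.2% of endothelial cells, so that a single Prg4 UMI marks no cell here. Markers of several other cell types were low in members. The 6 endothelial markers summed to 0 to 46.5 CPM, the 6 immune markers to 0 to 21.5 CPM and the 6 Schwann cell markers to 4.77 to 47.0 CPM with Sox10 and Foxd3 at 0 in all members.

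Other marker sets were not negligible in members. The 5 chondrocyte markers present in the data summed to 0 to 412 CPM in members and 47.6 to 7861 CPM in other gated fibroblasts. The 6 perivascular markers summed to 9.55 to 189 CPM against 39.4 to 134 CPM. The 6 tenocyte markers summed to 87.2 to 1147 CPM in members and 1289 to 4507 CPM in other gated fibroblasts, the 6 osteoblast markers to 13.4 to 192 CPM against 554 to 7039 CPM, and the 4 haemoglobin genes with Alas2 to 208 to 8180 CPM against 192 to 2882 CPM. At least 3 markers of some other class were detected in 249 members (17.7%) and in 7264 other gated fibroblasts (48.4%), and haemoglobin and Alas2 account for 209 of the members. Of other gated fibroblasts 27.1% carried at least 3 tenocyte markers, 18.4% at least 3 of haemoglobin and Alas2, 8.57% at least 3 osteoblast and 3.66% at least 3 chondrocyte markers. The counts of the gene lists are also given without the cells that carry 3 markers of any other class, haemoglobin included.

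The share of members among gated fibroblasts is the first quantity the design compares between labels. At rest it was 10.7%, 4.23% and 2.61% in replicates 1 to 3, at peak 14.5%, 4.03% and 12.8%, in resolving joints 16.6%, 6.23% and 14.1%, and in resolved joints 4.20%, 4.81% and 12.9%. Every label thus held libraries with few and with many members, and the labels overlapped. The means were 5.84% ± 4.26 at rest, 10.5% ± 5.64 at peak, 12.3% ± 5.42 in resolving and 7.32% ± 4.87 in resolved joints (SD, n = 3). In a two-sided exact permutation test no label passed against rest (p = 0.3, 0.2 and 0.6, adjusted over the 3 contrasts 0.45, 0.45 and 0.6), a design in which 3 libraries against 3 cannot give a p below 0.1.

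The spread lay between runs of the barcode suffix. Libraries with suffixes 1 to 3 held 10.7%, 14.5% and 16.6% members, those with suffixes 4 to 6 held 4.20%, 4.23% and 4.03%, those with suffixes 7 to 9 held 6.23%, 4.81% and 2.61%, and those with suffixes 10 to 12 held 12.8%, 14.1% and 12.9%. Suffixes 4 to 6 and 7 to 9 lay below both other runs without overlap. Against the mean of 13.9% ± 3.02 for suffixes 1 to 3, the means of 4.15% ± 0.107 and 4.55% ± 1.82 gave p = 0.1 each in the exact permutation test, the smallest this size allows, and 13.3% ± 0.727 for suffixes 10 to 12 gave p = 0.7 (SD, n = 3). The order was the same with cells thinned to 2000 UMIs, at 5.38%, 1.59%, 2.17% and 4.90% in the order of the suffixes, and without cells carrying 3 markers of another class, at 20.6%, 5.76%, 7.29% and 18.6%.

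Members in the low-share runs also met the rule more narrowly. Exactly 3 of the 6 genes were detected in 53.1% of members with suffixes 1 to 3, 70.5% with suffixes 4 to 6, 60.9% with suffixes 7 to 9 and 49.5% with suffixes 10 to 12, at median depths of 6182, 6204, 5066 and 6206 UMIs. Stmn4 was detected in 35.1%, 22.3%, 32.6% and 48.4% of members in that order and Efhd1 in 69.4%, 56.6%, 62.7% and 72.3%, whereas Pi16 was detected in 88.4%, 94.6%, 91.8% and 89.1%. These are shares among cells the same genes chose and are given as a description.

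**Figure D2:**
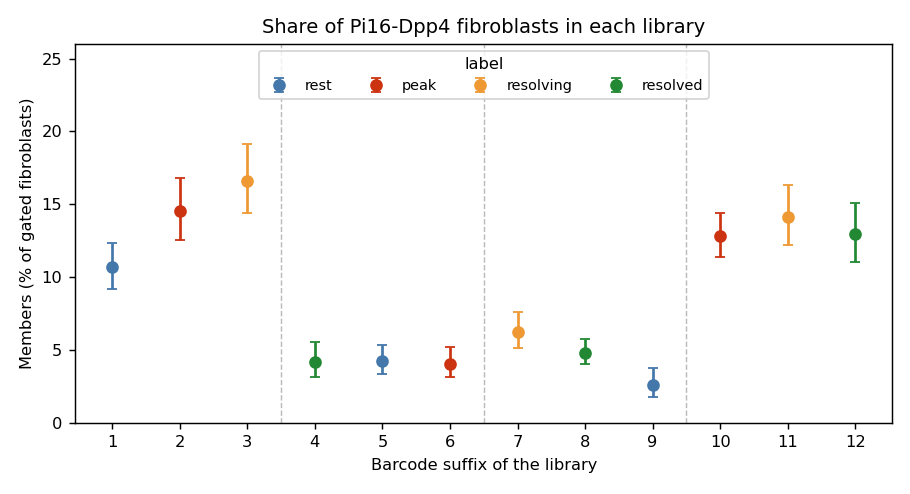
Members as a percent of gated fibroblasts (y axis) in each library, in order of its barcode suffix (x axis), with the colour giving the label and the bar the 95% Wilson interval of counting error. Dashed lines separate the runs of 3 suffixes. The 6 libraries with suffixes 4 to 9 sit between 2.61% and 6.23%, below the other 6, which sit between 10.7% and 16.6%, and each label has libraries on both sides.

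Members had higher levels of most genes known from Pi16 and Dpp4 fibroblasts of other organs than the other gated fibroblasts of the same library. Both sets of cells were split on expression, so this contrast is a description. Fold changes, given in brackets, are log2 values ± SE from a fit on UMI sums in 12 libraries with library as a block. Genes are called past the threshold at an adjusted p under 0.05 and a log2 fold change over 0.5, and the 13 rule genes were left out. Of 12273 genes, 790 were higher in members (6.44%) and 1769 lower (14.4%), together 20.9%, and nothing is read from these counts. Of 36 genes known from this fibroblast state in other tissues, 32 were higher past the threshold and 1 was lower, with a median log2 difference of 1.55 beside -0.07 over all genes. This list was chosen with earlier results of these data known, and the rule genes mark the same state. The count is therefore a description and no independent support for the name. Without cells carrying 3 markers of another class, 31 of 35 were higher and none was lower, with a median of 1.34 beside -0.04 over all genes.

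Several genes of that list encode surface proteins. Cd248 (endosialin), a fibroblast surface glycoprotein, was lowest at 275, median at 382 and highest at 637 CPM in members, against 46.4 to 147 CPM in other gated fibroblasts (2.16 ± 0.08). The 12 member values lay wholly above the 12 others. Cd55, which shields cells from complement, ranged from 169 to 679 CPM against 39.9 to 135 (2.11 ± 0.08), and Anxa3, a calcium-dependent lipid-binding annexin, from 208 to 537 against 56.8 to 95.6 (2.16 ± 0.08). Both were higher in members of all 12 libraries. Scara5, a ferritin receptor, was at 381 ± 136 against 78.1 ± 38.7 CPM (2.25 ± 0.10). The stem cell antigen Ly6a and its relative Ly6c1 were abundant in both sets and higher in members. Ly6a was at 3750.0 ± 401 against 1227 ± 271 CPM (1.55 ± 0.06) and Ly6c1 at 2589 ± 563 against 898 ± 420.0 CPM (1.55 ± 0.09), although reads of such close relatives may be split between them. Procr, the protein C receptor, was at 333 ± 182 against 98.6 ± 35.4 CPM (1.58 ± 0.14).

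The largest differences by the naming rule were in genes of low level. Dact2, an intracellular regulator of Wnt and TGF-beta signalling, was at 4.08, 27.8 and 112 CPM in the lowest, median and highest library of members and between 1.20 and 4.72 CPM in other gated fibroblasts (3.82 ± 0.26). Its spread within members was as wide as its mean, 37.3 ± 33.2 CPM, although members were higher in all 12 libraries. Gap43, known from growing axons, was at 24.6 ± 24.0 against 1.86 ± 1.30 CPM (3.52 ± 0.25) and Uchl1, a ubiquitin hydrolase also known from neurons, at 62.2 ± 14.5 against 8.59 ± 3.78 CPM (2.79 ± 0.11). The axon-associated genes Gap43 and Uchl1 thus shared this pattern, while the Schwann cell markers Sox10 and Foxd3 were at 0 in members. Tek, the angiopoietin receptor better known from endothelium, was at 38.9 ± 19.5 against 5.38 ± 2.19 CPM (2.69 ± 0.18), and Ackr1, a chemokine-binding receptor of venules, at 40.0 ± 12.1 against 6.55 ± 4.38 CPM (2.52 ± 0.18). Ackr1 overlaps the 3′ end of the rule gene Cadm3 on the same strand, so reads of Cadm3 may be counted as Ackr1, and its difference may restate the choice of members. The values of Tek and Ackr1 stood beside a summed level of 0 to 46.5 CPM for Pecam1, Cdh5, Kdr, Tie1, Emcn and Egfl7, which was lower than in other gated fibroblasts in all 12 libraries.

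The remaining genes of that rule were Aif1l, which binds actin (3.11 ± 0.16), Zfp385a, a zinc finger protein (2.35 ± 0.10), Gas7, a growth arrest gene (2.24 ± 0.12), and Tmeff2, a membrane protein with follistatin domains (2.18 ± 0.16). Of cytokine genes, Il18, which encodes an interleukin-1 family cytokine, was at 67.1 ± 28.6 against 13.4 ± 4.40 CPM (2.26 ± 0.17), and Il1r2, the decoy receptor for interleukin-1, at 53.8 ± 30.6 against 10.7 ± 5.92 CPM (2.31 ± 0.18). Il33, a nuclear alarmin of stromal cells, was at 112 ± 66.4 against 43.6 ± 15.4 CPM (1.14 ± 0.14) and was also higher in all 12 libraries.

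**Figure D3:**
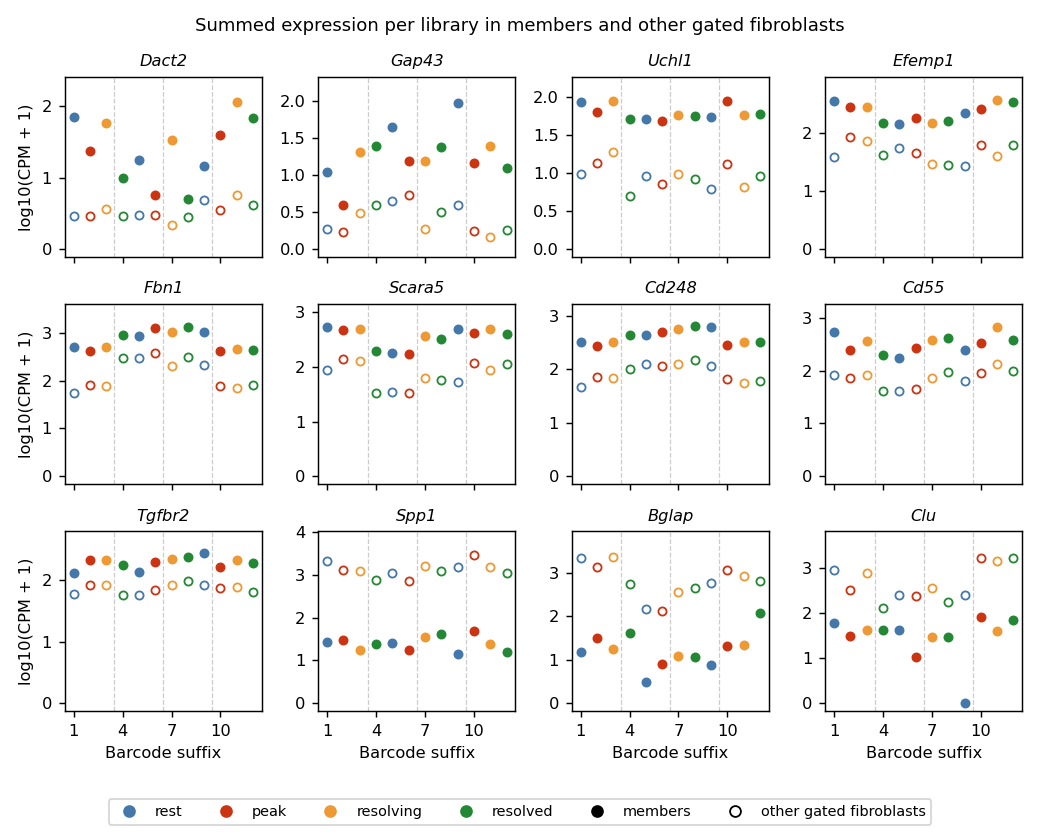
Summed expression of 12 named genes, as log10 of CPM plus 1 (y axis), in members (filled) and other gated fibroblasts (open) of each library in order of its barcode suffix (x axis), coloured by label. For the 9 genes from Dact2 to Tgfbr2 the filled point lies above the open one in all 12 libraries, and for Spp1, Bglap and Clu it lies below.

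Matrix genes went both ways. Of 21 elastic fibre genes 8 were higher and 7 lower. The microfibril gene Fbn1 was at 771 ± 353 against 179 ± 119 CPM (2.21 ± 0.12). Its partners Mfap5 and Emilin2 were at 2421 ± 589.7 against 652 ± 213 CPM (1.84 ± 0.08) and 198 ± 33.0 against 49.3 ± 7.53 CPM (1.92 ± 0.08). Efemp1 (fibulin-3), which also rests on elastic fibres, was at 248 ± 89.9 against 49.2 ± 19.4 CPM (2.26 ± 0.14). Fbn2, Emilin1, Mfap4, Mfap2, Lox, Loxl3 and Ltbp3 went the other way. None of 11 fibrillar collagens was higher and 7 were lower, among them Col1a1 at 5925 ± 3074 against 9676 ± 4049 CPM (-0.88 ± 0.09). Against cells without markers of another class, Col1a1 differed by -0.34 and the cartilage collagen Col2a1 by -0.15 in place of -5.36, neither past the threshold. Of 16 other collagens 11 were lower, Col8a2 (-3.71 ± 0.18) and Col12a1 (-2.20 ± 0.16) among them, and Col14a1 and Col6a6 were higher.

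Basement membrane genes were divided as well, with 7 of 17 higher and 5 lower. Nid1, which links laminin to collagen IV, was at 248 ± 66.9 against 92.6 ± 18.0 CPM (1.32 ± 0.10) and the laminin chain Lamc1 at 155 ± 25.0 against 62.4 ± 12.2 CPM (1.25 ± 0.08). Lama2 (0.99 ± 0.09) and Lama4 (0.92 ± 0.10) lay in the same direction, while Col4a1, Col4a2, Col15a1, Nid2 and Lama5 were lower. Of 12 small leucine-rich proteoglycans, which bind collagen fibrils, 8 were lower and Podn alone was higher, a call that was lost without cells carrying 3 markers of another class, where 6 were lower and none higher. Omd, known from bone, was at 25.9 ± 13.2 against 189 ± 135 CPM (-2.94 ± 0.13) and Fmod, known from tendon, at 83.6 ± 67.9 against 1476 ± 603 CPM (-4.29 ± 0.23). Both stayed lower without cells carrying markers of another class (-1.97 and -3.66), whereas Kera did not pass the threshold there (-0.57 in place of -3.30).

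The largest decreases were mostly in genes known from bone and cartilage. Spp1 (osteopontin), Ibsp (bone sialoprotein) and the osteocalcin genes Bglap and Bglap2, whose reads can be confused with each other, differed by -5.85 ± 0.12, -5.70 ± 0.27, -5.36 ± 0.33 and -5.33 ± 0.33. Spp1 was at 13.4, 24.4 and 48.1 CPM in the lowest, median and highest library of members against 732, 1257 and 2826 in other gated fibroblasts, and the 2 sets did not overlap. Tnfsf11, which encodes the osteoclast factor RANKL, was at 0.451 ± 0.922 against 21.2 ± 16.1 CPM, and Ostn, a peptide of bone and muscle, at 6.59 ± 12.1 against 188 ± 177 CPM. Coch, Scrg1, Dapk2 and Chodl completed the rule with -5.81 ± 0.21, -5.18 ± 0.38, -5.52 ± 0.29 and -5.10 ± 0.30. Without cells carrying 3 markers of another class, the log2 difference was -1.99 for Coch, -2.21 for Scrg1 and -5.00 for Spp1.

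Of 38 tested Wnt pathway genes outside the rule, 6 were higher in members and 17 lower. Among ligands, Wnt10b was at 9.57 ± 4.63 against 1.12 ± 0.780 CPM (2.97 ± 0.26), higher in 11 of 12 libraries, and Wnt11 at 16.1 ± 9.83 against 6.39 ± 3.22 CPM (1.23 ± 0.16). Wnt1 and Wnt9a were also higher past the threshold at low levels, in 8 and 10 of 12 libraries, whereas Wnt16, Wnt4, Wnt5a and Wnt5b were lower (Wnt16 -3.83 ± 0.33). Among secreted antagonists Wif1 and Dkk3 were lower, at 6.54 ± 10.5 against 133 ± 101 CPM (-4.39 ± 0.26) and 36.8 ± 21.4 against 173 ± 85.4 CPM (-2.23 ± 0.15). Sfrp1, Sfrp2, Sfrp5 and Frzb were lower too, and Sfrp4 was higher at 784 ± 314 against 403 ± 244 CPM (1.05 ± 0.16).

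Of 34 genes of the TGF-beta and BMP pathways, 6 were higher and 12 lower. The receptor gene Tgfbr2 was at 128, 200.4 and 275 CPM in the lowest, median and highest library of members against 55.0, 73.5 and 95.6 (1.32 ± 0.06), without overlap. The ligand gene Tgfb3 was lower at 38.6 ± 7.66 against 86.1 ± 15.7 CPM (-1.23 ± 0.08). Fstl1, a secreted follistatin-like protein, was at 2232 ± 501 against 980.4 ± 371 CPM (1.16 ± 0.09) and Bmp4 at 72.6 ± 32.7 against 35.3 ± 17.6 CPM (0.96 ± 0.11). The BMP antagonists Nog and Grem1 were lower (Nog -3.11 ± 0.27).

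Chemokine and cytokine genes were mostly lower, 17 of 32, with 7 higher. The acute-phase gene Saa3 was at 28.8 ± 45.8 against 387 ± 389.6 CPM (-3.98 ± 0.28), Cxcl12, which retains leukocytes, at 413 ± 212 against 935 ± 195 CPM (-1.36 ± 0.11) and Ccl20 at 1.11 ± 2.59 against 19.0 ± 28.0 CPM (-4.39 ± 0.33). Higher were Ccl8 at 71.8 ± 35.8 against 24.3 ± 11.5 CPM (1.58 ± 0.16) and the monocyte attractants Ccl2 (0.70 ± 0.15) and Ccl7 (0.53 ± 0.15). The macrophage growth factor Csf1 was at 187 ± 64.1 against 97.7 ± 40.5 CPM (0.88 ± 0.08), and Tslp at 15.1 ± 9.16 against 4.19 ± 1.76 CPM (1.83 ± 0.19). Among 16 complement genes 4 were higher and 6 lower, with C3, the central complement component, at 548 ± 128 against 231 ± 78.2 CPM (1.20 ± 0.14) and the inhibitor gene Clu at 39.0 ± 22.8 against 677 ± 597 CPM (-4.00 ± 0.22).

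None of 15 myofibroblast genes was higher and 13 were lower. The matrix glycoproteins Tnc and Comp were at 36.4 ± 34.4 against 222 ± 143 CPM (-2.76 ± 0.17) and 486 ± 188 against 2303 ± 1086 CPM (-2.25 ± 0.17), and the contractile gene Tpm1 at 93.6 ± 33.0 against 285 ± 62.4 CPM (-1.73 ± 0.12). Of 21 proteases and inhibitors 11 were lower, among them the collagenase Mmp13 at 15.3 ± 11.5 against 466 ± 185 CPM (-5.04 ± 0.23), and the aggrecanase genes Adamts5 (1.23 ± 0.09) and Adamts15 were higher. In the adipogenic list, the transcription factor genes Ebf2, Ebf1 and Zfp423, known from early fat cell precursors, were higher. Ebf2 was at 101 ± 29.0 against 25.9 ± 9.51 CPM (1.85 ± 0.12) and Ebf1 at 619 ± 113 against 325 ± 50.7 CPM (0.84 ± 0.08). The genes of fat uptake and storage Fabp4, Fabp5, Cd36, Lpl and Car3 were lower. Within this list 3 genes were higher and 7 lower. Without cells carrying 3 markers of another class, 3 of 15 were higher and 9 lower. Nothing is read from what these genes encode.

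Interferon-induced genes were higher where they differed, 7 of 22 with none lower, but from a low level for most. Ifi27l2a was at 368 ± 118 against 64.0 ± 25.6 CPM (2.46 ± 0.14), Usp18 at 24.1 ± 10.4 against 6.29 ± 1.96 CPM (1.88 ± 0.19) and Oasl2 at 13.2 ± 8.62 against 5.76 ± 3.14 CPM (0.98 ± 0.20). Of 23 genes that record limb position, 9 were lower, such as Hoxc10 (-1.03 ± 0.09), Shox2 (-1.33 ± 0.12) and Pitx1 (-0.85 ± 0.14), and the Iroquois genes Irx3 and Irx5 were higher. Of 23 cell cycle genes Rrm2 alone passed the threshold (-0.61 ± 0.21), and it did not in cells matched on UMIs (-0.39), nor without any 1 of rest replicates 1 and 2, peak replicates 1 and 3 and resolving replicates 1 and 3 (-0.58 to -0.43). Of 23 dissociation and immediate early genes 1 was higher and 4 lower, Klf4 (0.57 ± 0.07) and Egr2 (-1.57 ± 0.16) among them, and of 17 glycolysis genes 4 were lower. Without cells carrying 3 markers of another class Klf4 did not pass (0.42), and 2 of those genes were lower and none higher.

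Removing the cells that carried 3 markers of another class from both sets lowered many of these counts. Lower calls over all genes dropped in this setting too, as given in the section on processing. Nothing is therefore read from the drop in the lists. The share of all genes called in this setting is not given here, so nothing is read from the counts below either. Elastic fibre genes were then higher in 5 and lower in 6 of 20, and basement membrane genes in 5 and lower in 3 of 16. Of fibrillar collagens 3 of 10 were lower and none higher, and other collagens were higher in 1 and lower in 8 of 15. Wnt pathway genes were higher in 4 and lower in 9 of 32, and genes of the TGF-beta and BMP pathways in 7 and lower in 10 of 31. Chemokine and cytokine genes were higher in 4 and lower in 14 of 30, complement genes in 3 and lower in 5 of 16, and proteases and inhibitors in 4 and lower in 8 of 19. Myofibroblast genes were lower in 9 of 14 with none higher, and interferon-induced genes higher in 4 of 21 with none lower. Adipogenic genes were higher in 3 and lower in 9 of 15, and limb position genes in 2 and lower in 6 of 22. Of glycolysis genes 4 of 17 were lower and none higher, and no cell cycle gene passed.

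**Figure D4:**
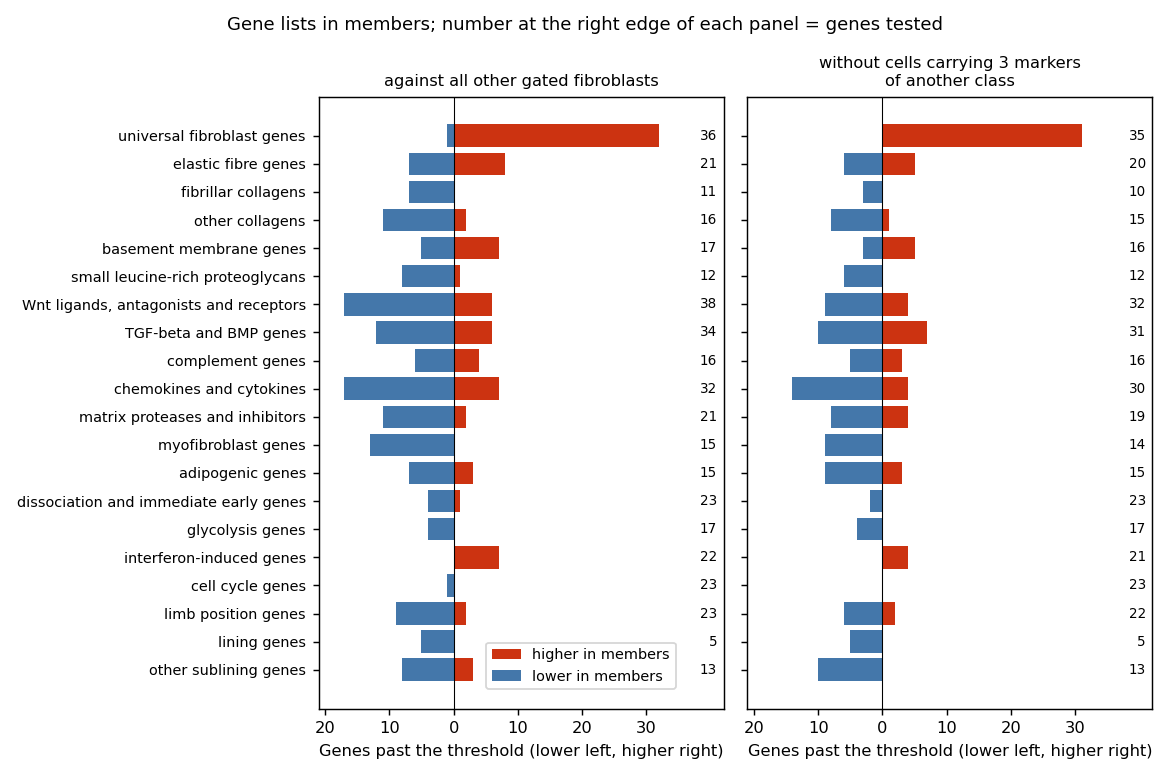
Number of genes of each list past the threshold in members (x axis, lower to the left in blue, higher to the right in red), against all other gated fibroblasts on the left and with cells carrying 3 markers of another class removed on the right, and numbers at the right edge give the genes tested. The list of Pi16 and Dpp4 fibroblast genes of other tissues has 32 of 36 and 31 of 35 genes higher, and lining genes are lower in 5 of 5 in both panels. The lists were chosen with earlier results of these data known, and members were chosen by genes of that same state.

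Against lining-gated cells (660 cells with at least 3 of Prg4, Clic5, Tspan15, Htra4 and Itga6, which share 18 cells with the members), 1074 of 8070 genes were higher in members (13.3%) and 1025 lower (12.7%), together 26%, again as a description. Secreted proteins of immune function led the increases. Ccl8 was at 73.0 ± 35.6 against 1.10 ± 3.04 CPM (5.99 ± 0.34), C3 at 555 ± 131 against 13.8 ± 11.6 CPM (5.58 ± 0.26) and the eosinophil attractant Ccl11 at 134 ± 90.6 against 4.33 ± 5.87 CPM (5.52 ± 0.40). The carboxypeptidase Cpz and the retinol dehydrogenase Adh7 were beside them. The decreases were led by F13a1 at 3.17 ± 3.02 against 928 ± 184 CPM (-7.84 ± 0.22) and Col22a1 at 1.66 ± 1.85 against 403 ± 84.1 CPM (-7.67 ± 0.20), and by Rarres1. Megf10 had 1 UMI in members against 302 UMIs, a ratio of 434 (95% exact interval 77.3 to 17188.1, counting error only). Tmem196 had 0 against 183 UMIs, which with a floor of 3 counts over all members is at least 87.6-fold lower. Chemokine and cytokine genes were higher in 14 of 23 and lower in 1, and of 10 fibrillar collagens 5 were higher and none lower, the opposite direction to the comparison with all other gated fibroblasts.

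The sublining cells with Ccl11 and Smoc2 (834 gated fibroblasts with both genes, 101 of them also members) were the other sublining class compared. Members were higher in 398 of 6694 genes (5.95%) and lower in 568 (8.49%). Dmkn (dermokine) was at 83.5 ± 46.1 against 2.80 ± 5.05 CPM and Sbsn (suprabasin), its neighbour gene, at 472 ± 162 against 67.5 ± 34.5 CPM (2.85 ± 0.18). The semaphorin Sema3e was at 49.7 against 6.95 CPM (2.98 ± 0.27), and Dact2 and Gap43 were again among the largest (3.64 ± 0.31 and 3.59 ± 0.45). Lower in members were Hsd11b1, which regenerates active glucocorticoid, at 8.26 ± 7.88 against 196 ± 89.0 CPM (-4.36 ± 0.23), and Cxcl14 at 268 ± 258 against 3377 ± 1312 CPM (-3.95 ± 0.22), with P2ry1 and Tmem204. Of 33 genes of the Pi16 and Dpp4 state 29 were higher and none lower, which is again a description. Chemokine and cytokine genes were lower in 17 of 27 and dissociation and immediate early genes in 12 of 23.

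Members were not uniform among themselves. Grouping them by their variable genes gave 5 groups of 161 to 408 cells and 2 of 11 and 6 cells, described here by the genes that lead them and not tested. A group of 408 cells was led by Ccl2, Ccl7, Cxcl1, Ptx3 and Hk2, and another of 299 by Pla2g5, Aldh3a1, Inmt, Dkk2 and Sfrp2. Then came a further one of 286 by Ltbp2, Aqp1, Slurp1 and Vwa1, a group of 236 by Cthrc1, H19, Ptn, Mfap4 and Postn, and a group of 161 by Smpd3, Il1r2, Stmn4 and Procr. The median number of rule genes was 4 in the group of 161 cells and 3 in the other large ones. The groups of 11 and 6 cells were led by lining genes (Col22a1, Prg4, Clic5) at a median of 13184 UMIs and by endothelial genes (Gpihbp1, Egfl7, Flt1) at 9376 UMIs, beside 6000 in all members. Whether these cells are doublets was not tested. A doublet caller marked 4 members and 56 cells in all (0.277%), too few for its calls to be used. Haemoglobin genes were also among the leading genes of the group of 286 cells, but were detected in no larger share of it than of the other members for Hba-a2 (21.7% against 27.1%) and Hbb-bs (71.0% against 73.4%).

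The groups held different shares of the members in each run of the suffix. The group led by Cthrc1 and H19 held 1.07% of members with suffixes 1 to 3, 57.2% with 4 to 6, 54.5% with 7 to 9 and 1.66% with 10 to 12. The group led by Pla2g5 held 39.8%, 6.02%, 15.0% and 12.6% in that order, and was the largest with suffixes 1 to 3. The group led by Ccl2 and Ccl7 held 19.9%, 19.9%, 16.3% and 45.1%, and was the largest with suffixes 10 to 12. The groups were found with the genes that differ between the runs, so these shares are a description.

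Between labels, no gene passed the threshold in the members in the main fit, which had no term for the suffix run. Summed over members per library, 0 of 7627 genes (0%) were called in peak, resolving or resolved against rest (quasi-likelihood test of edgeR, p adjusted by Benjamini and Hochberg's procedure). At an unadjusted p under 0.05 there were 143 genes in peak, 111 in resolving and 129 in resolved, which is 1.87%, 1.46% and 1.69% of those tested, and the lowest adjusted p was 1.0 in each contrast. The gene of lowest p in peak was Plac8, an innate immune gene, at 90.5, 87.4 and 100.5 CPM at rest and 8.92, 11.9 and 10.9 CPM at peak (log2 difference -3.07 ± 0.62, adjusted p = 1.0 by edgeR). In resolving joints it was Zfp948 and in resolved joints Hmgcs1, an enzyme of cholesterol synthesis, with log2 differences of -1.28 ± 0.32 and 1.16 ± 0.34. With the suffix run as a block 2 genes were higher in resolved joints and none was called in peak or resolving. DESeq2 called 1 gene, lower in peak, and no others.

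Members of different runs of the suffix differed in the level of many genes, over sums in which different groups of members prevailed. The group led by Cthrc1 and H19 held most members with suffixes 4 to 6 and 7 to 9 and few of the other runs. A shift between such groups and a change of level within them cannot be told apart in these sums. Each run was set against suffixes 1 to 3 in the same fit, so the 3 contrasts share those libraries, and adjusted p values are edgeR's. With suffixes 4 to 6, 526 of 7627 genes rose (6.9%) and 503 fell (6.59%), together 13.5%. In the other gated fibroblasts 34.1% of 12887 genes passed in this contrast, 20.8% with suffixes 7 to 9 and 7.04% with suffixes 10 to 12, at larger UMI sums. The collagen-associated secreted protein Cthrc1 was at 41.7, 42.6 and 45.0 CPM in the libraries with suffixes 1 to 3 and at 793, 1778 and 1482 with suffixes 4 to 6 (4.96 ± 0.32, adjusted p = 2.3e-08). No value of one run came near the other. Timp1, an inhibitor of matrix proteases, was at 128, 153 and 241 against 1697, 1665 and 1250.5 CPM (3.12 ± 0.28, adjusted p = 1.7e-06), and smooth muscle actin Acta2 at 10.2, 13.9 and 24.3 against 293, 146 and 153 CPM (3.53 ± 0.40, adjusted p = 1.7e-05). Of 14 tested myofibroblast genes 8 rose and none fell, with a list median of 1.94 beside -0.01 over all genes. Over the other gated fibroblasts, the log2 changes in this contrast were 2.08 for Cthrc1, 2.97 for Timp1 and 1.53 for Acta2.

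Matrix genes moved with them. Here the first and second set of 3 values are suffixes 1 to 3 and 4 to 6. Of 9 fibrillar collagens 7 rose, among them Col3a1 from 3973, 5656 and 4537 to 10202, 11592 and 9500.4 CPM (1.12 ± 0.14, adjusted p = 3.6e-05) and Col5a3 from 40.7, 23.8 and 23.4 to 133, 287 and 260.1 CPM (2.97 ± 0.28, adjusted p = 2.8e-06). The cross-linking enzyme Lox rose from 78.3, 115 and 78.2 to 399, 535 and 618 CPM (2.50 ± 0.25, adjusted p = 4.5e-06), and Emilin1 by 2.31, with 9 of 20 elastic fibre genes higher and Efemp1 and Ltbp4 lower. Glycolysis genes rose in 10 of 16, among them the lactate transporter Slc16a3 (4.30 ± 0.62, adjusted p = 1.2e-04). Cell cycle genes rose in 15 of 22, among them Birc5 at 0, 0.991 and 3.60 and 118, 47.9 and 81.1 CPM (5.49 ± 0.89, adjusted p = 4.0e-04). None of either list fell. The other gated fibroblasts changed by 1.15 in Col3a1, 2.84 in Col5a3, 1.62 in Lox and 1.21 in Emilin1 on the log2 scale. Slc16a3 and Birc5 changed there by 2.63 and 2.69.

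Inflammatory genes rose as well, 9 of 21, with 2 falling. The neutrophil attractant Cxcl5 had 0 UMIs in members of the 3 libraries with suffixes 1 to 3 and 344 UMIs with suffixes 4 to 6, at 751, 164 and 26.3 CPM, which is at least 288-fold higher against a floor of 3 counts over the run (adjusted p = 7.4e-04 by edgeR). Slpi, a secreted protease inhibitor, had 2 UMIs against 169, a ratio of 212 (95% exact interval 57.8 to 1764.7, counting error only). Saa3 and the mitotic kinase gene Pbk had 1 UMI each against 82 and 54, with ratios of 206 (35.9 to 8223.0) and 135 (23.3 to 5448.6). Il6 was at 93.5, 54.5 and 48.6 against 349, 183 and 231 CPM (1.92 ± 0.23, adjusted p = 2.8e-05), and Angptl4, which restrains lipoprotein lipase, rose by 5.97 ± 0.33 (adjusted p = 3.2e-09). Each gene named here as rising also rose in the other gated fibroblasts. Their log2 changes there were 9.67 for Cxcl5, 6.1 for Slpi, 4.05 for Saa3, 1.63 for Pbk, 0.63 for Il6 and 3.32 for Angptl4.

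The genes that fell with suffixes 4 to 6 included many that set members apart from other fibroblasts. Of 33 tested genes of the Pi16 and Dpp4 state 13 fell and 2 (Fbn1 and Cd248) rose, with a list median of -0.64. Scara5 was at 547, 469 and 502 with suffixes 1 to 3 and at 192, 181 and 169 CPM with suffixes 4 to 6 (-1.50 ± 0.16, adjusted p = 7.6e-06). Tmem100, a membrane protein induced by BMP signals, was at 452, 387 and 516 and 145, 137 and 138 CPM (-1.70 ± 0.16, adjusted p = 2.6e-06). Even so, Scara5 in members of suffixes 4 to 6 stayed above its level in the other gated fibroblasts of those libraries, 32.0, 34.5 and 31.9 CPM. The largest falls were Galnt15, which starts mucin-type sugar chains (-3.29 ± 0.37, adjusted p = 1.3e-05), and Fmo2, a flavin monooxygenase (-3.26 ± 0.70, adjusted p = 0.004). They included the phospholipase Pla2g5 (-3.17 ± 0.54, adjusted p = 6.5e-04) and Ramp1, a subunit of the CGRP receptor, from 98.6, 135 and 152 to 29.6, 14.6 and 11.9 CPM (-2.85 ± 0.33, adjusted p = 1.8e-05). Spock2, with 3 UMIs against 66, had a ratio of 8.77 (95% exact interval 2.87 to 43.6). Each single gene named here as falling also fell in the other gated fibroblasts. There the log2 changes were -1.75 for Scara5, -1.87 for Tmem100, -3.03 for Galnt15 and -2.31 for Fmo2. Pla2g5, Ramp1 and Spock2 changed by -2.31, -1.82 and -1.63 there.

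Further lists followed the same division. The proteoglycan Ecm2 was at 232, 287 and 216 and 44.4, 47.9 and 59.7 CPM (-2.28 ± 0.20, adjusted p = 1.7e-06), while Bgn rose (1.17 ± 0.24, adjusted p = 0.0031). Bmp4 fell (-1.81 ± 0.31, adjusted p = 6.1e-04), as did the complement inhibitor gene Serping1 (-0.88 ± 0.16, adjusted p = 8.6e-04), with 4 of 13 complement genes lower and none higher. Of the 13 other sublining genes 8 fell, among them Abca8a (-2.55 ± 0.36, adjusted p = 9.5e-05) and Penk (pre-enkephalin, -1.97 ± 0.26, adjusted p = 5.3e-05). The heat shock genes Hspa1a and Hspa1b, near-identical copies whose reads may be shared, changed by -1.33 and -1.35, genes that also respond to tissue handling, whose part in these differences was not tested. Changes in the other gated fibroblasts were -2.11 (Ecm2), -1.49 (Bmp4), -0.8 (Serping1), -1.9 (Abca8a), -1.13 (Penk) and 0.81 (Bgn) on the log2 scale. Hspa1a and Hspa1b changed by -1.59 and -1.3 there. The tested lining genes Prg4 and Tspan15 passed in no run.

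With suffixes 7 to 9 the same lists moved, with fewer calls: 283 genes rose (3.71%) and 196 fell (2.57%), together 6.28%. Cthrc1 was at 1456, 2587 and 1675 CPM (5.46 ± 0.32, adjusted p = 1.2e-08). Barx2, a homeobox gene, had 50 UMIs against 2 (ratio 54.1, 95% exact interval 14.2 to 459.0). The imprinted RNA H19 (4.86 ± 0.51, adjusted p = 1.8e-05) and the secreted C1qtnf3 (4.45 ± 0.38, adjusted p = 2.3e-06) rose. Fibrillar collagens rose in 6 of 9 (Col1a1 1.43 ± 0.14, adjusted p = 1.2e-05), myofibroblast genes in 6 of 14, glycolysis genes in 9 of 16 and elastic fibre genes in 9 of 20. Fbn1 was at 1050.2, 1365 and 1058 CPM against 515, 412 and 499 (1.29 ± 0.16, adjusted p = 7.4e-05). Cell cycle genes rose in 4 of 22 and chemokine and cytokine genes in 2 of 21, with 3 falling. Among those falling, Cxcl13, which attracts B cells, had 2 UMIs against 232 (ratio 53.6, 95% exact interval 14.7 to 445.3), a call lost without rest replicate 1, resolving replicate 2 or resolved replicate 2. Csf1 was at 106, 102 and 107 against 235, 289.5 and 243 CPM (-1.29 ± 0.17, adjusted p = 1.1e-04). Smpd3 (-3.41 ± 0.64, adjusted p = 0.0026), the glutathione transferase Gsta3 (-3.22 ± 0.48, adjusted p = 4.0e-04) and Angptl7 (-2.78 ± 0.56, adjusted p = 0.0046) fell with them. Of 33 genes of the Pi16 and Dpp4 state 3 rose and 5 fell. Outside the members, other gated fibroblasts changed by 2.94 (Cthrc1), 2.39 (Barx2), 2.58 (H19), 3.24 (C1qtnf3), 1.21 (Col1a1) and 1.78 (Fbn1) on the log2 scale. Falling genes changed there by -2.63 (Cxcl13), -1.19 (Csf1), -2.95 (Smpd3), -3.15 (Gsta3) and -2.02 (Angptl7).

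Members with suffixes 10 to 12 were close to those with suffixes 1 to 3. There 26 genes rose (0.341%) and 2 fell (0.0262%), together 0.367%, and with scaling by total counts alone 19 rose and 6 fell. Tnfaip6, a hyaluronan-binding protein induced by inflammatory signals, was at 1380.4, 1692 and 2076 CPM against 658, 362 and 509 (1.86 ± 0.19, adjusted p = 9.1e-05), and the hyaluronan synthase Has1 at 1133, 1670.5 and 1379.6 against 737, 391 and 608 (1.37 ± 0.22, adjusted p = 0.008). Cxcl1 (1.32 ± 0.20, adjusted p = 0.0046), Ccl7 (1.48 ± 0.30, adjusted p = 0.036) and the growth factor Hbegf (2.34 ± 0.27, adjusted p = 2.1e-04) also rose, as did Bmp2 (1.07 ± 0.18, adjusted p = 0.008) and the stress-induced genes Ier3 (1.30 ± 0.18, adjusted p = 0.0022) and Atf3 (0.92 ± 0.18, adjusted p = 0.027). Col3a1 and Sparc fell, by 0.68 and 0.54 on the log2 scale. None of the cell cycle, myofibroblast or elastic fibre genes tested passed the threshold. Fabp4 (2.92 ± 0.56, adjusted p = 0.027) and Rgcc rose too, but Fabp4 leads the group of 6 members with endothelial genes, which all lie in this run, and without cells carrying 3 markers of another class neither passed (adjusted p = 0.22 and 0.15). Hbegf and Rgcc are among the leading genes of the group of 11 members with lining genes, of which 9 lie in this run. Hbegf was detected in 90.9% of that group and 11.4% of the other members, and Rgcc in 100% and 28.7%. Log2 changes in the other gated fibroblasts were 1.66 (Tnfaip6), 1.17 (Has1), 1.41 (Cxcl1), 1.11 (Ccl7), 0.76 (Hbegf) and 0.63 (Bmp2). Further ones were 0.81 (Ier3), 0.87 (Atf3), -0.02 (Col3a1), -0.7 (Sparc), 1.05 (Fabp4) and 1.05 (Rgcc).

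**Figure D5:**
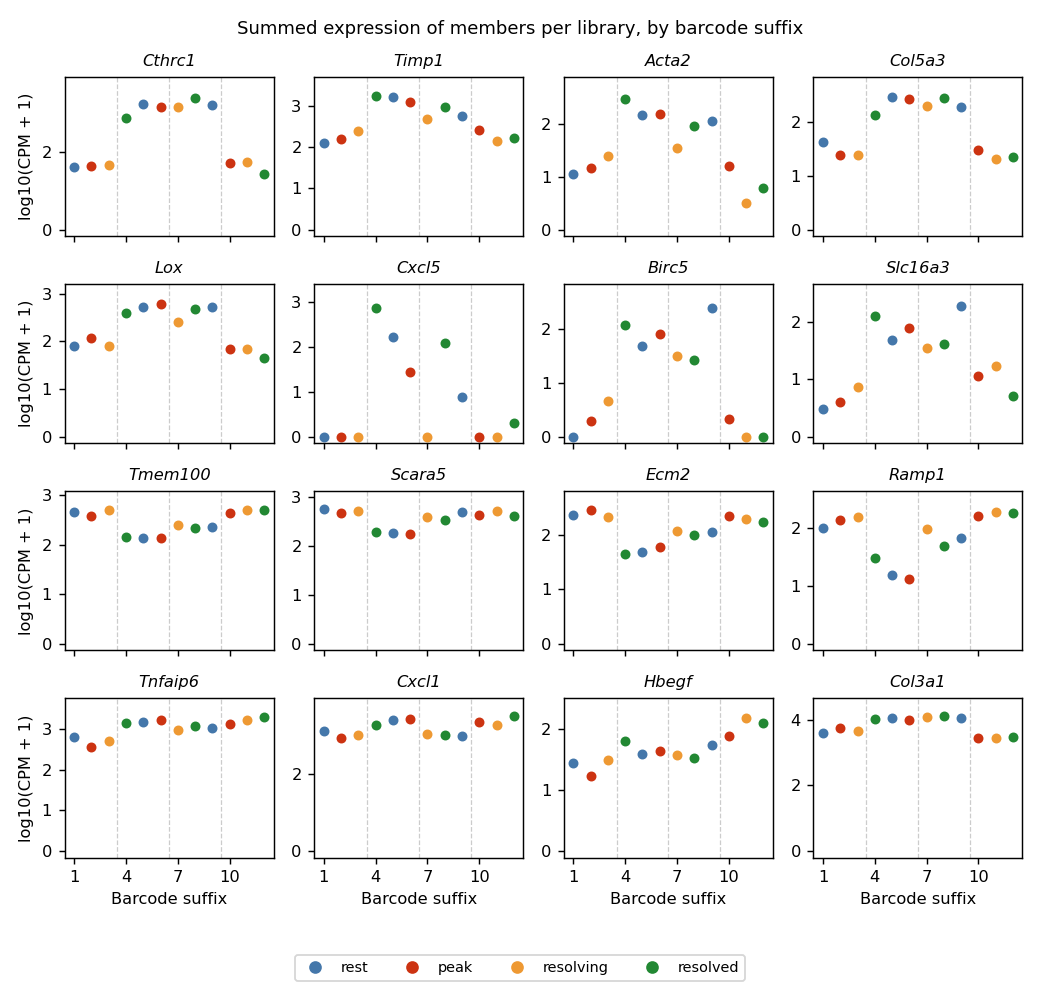
Summed expression of 16 named genes in members, as log10 of CPM plus 1 (y axis), in each library in order of its barcode suffix (x axis), coloured by label, with dashed lines between runs of 3 suffixes. Cthrc1, Timp1, Acta2, Col5a3, Lox and Slc16a3 are higher with suffixes 4 to 9 than in the other runs whatever the label, Tmem100, Ecm2 and Ramp1 are lowest with suffixes 4 to 6, and Tnfaip6 and Hbegf are higher with suffixes 10 to 12 than with 1 to 3.

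These differences depended on few libraries and on the choice of members in part. Without peak replicate 2 the counts for suffixes 4 to 6 were 378 and 300, and without resolved replicate 1 412 and 319. For suffixes 7 to 9 they were 123 and 58 without resolved replicate 2, 191 and 123 without rest replicate 1, and 213 and 127 without resolving replicate 1. For suffixes 10 to 12, 7 genes rose without peak replicate 1, 11 without resolved replicate 3 and 13 without resolving replicate 1. Members with 4 or more rule genes, a set that lacks rest replicate 3 and so has 11 libraries, gave 287 and 288 genes for suffixes 4 to 6, and members without 3 markers of another class 268 and 182. With the stage label as a further term they were 372 and 326. Single calls with suffixes 10 to 12 also rested on 1 library. Has1 and Bmp2 did not pass without peak replicate 1 (1.16 and 0.96). Ccl7 did not pass without rest replicate 1, peak replicate 1 or 2, resolving replicate 1 or 3 or resolved replicate 3 (1.16 to 1.56), nor Atf3 without peak replicate 1, resolving replicate 1 or 3 or resolved replicate 3 (0.77 to 0.94). Col3a1 lost its call without any 1 of 7 libraries (peak replicates 1 to 3, resolving replicates 1 and 3, resolved replicates 2 and 3, at -0.74 to -0.51). Sparc lost it without the same libraries other than peak replicate 2 (-0.56 to -0.47), and Fabp4 without rest replicate 1, peak replicate 1 or 3 or resolving replicate 1 (1.65 to 3.24).

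Whether the members changed differently from the other gated fibroblasts of the same libraries was tested as an interaction. Between labels 0 of 12273 genes passed an adjusted p under 0.05 in peak and in resolving (0%) and 3 in resolved (0.0244%). Between runs 288 genes passed with suffixes 4 to 6 (2.35%), 80 with suffixes 7 to 9 (0.652%) and 49 with suffixes 10 to 12 (0.399%). The first count was 174 without rest replicate 1, 172 without peak replicate 2, 173 without resolving replicate 1 and 162 without resolved replicate 1, the second was 29 without resolved replicate 2, and the third 25 without resolved replicate 3. Cthrc1 rose more in members than in the others with suffixes 4 to 6, where the others were at 307, 184 and 303 CPM with suffixes 1 to 3 and at 984, 941 and 1231 CPM with suffixes 4 to 6 (difference of the log2 changes 2.86 ± 0.28, adjusted p = 2.2e-06 by edgeR). Members were thus below the other gated fibroblasts in Cthrc1 with suffixes 1 to 3, and the levels of both sets overlapped with suffixes 4 to 6. Fbln2 (fibulin-2) went the other way (-1.46 ± 0.14, adjusted p = 2.2e-06), being at 579, 422 and 523 and 651, 562 and 656 CPM in members and at 192, 194 and 217 and 721, 574 and 705 CPM in the others.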

How the data were processed

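The 12 libraries held live CD45neg cells of digested joints, 3 per label. The files are whole-number UMI counts per gene and cell, deposited by the authors after Cell Ranger, against mm10, and their cells were already filtered. Whether they were brought to a common depth before deposit is not given in the sources used here. The rule was applied to each cell, and counts were summed over the members, and over each comparison class, of a library. Members and gene lists were chosen with earlier results of these data known, the markers of other classes included.

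Sums were fitted with edgeR 4.0.16 in R 4.3.3 (TMM scaling, quasi-likelihood test, Benjamini-Hochberg adjustment over all genes tested), with library as a block for members against other cells and one fit over all 12 libraries for labels and for suffix runs. The runs of 3 suffixes were defined after the libraries had been compared. Genes were called at an adjusted p under 0.05 and a log2 change over 0.5, interactions at the adjusted p alone. Named genes were, past the threshold at 20 CPM or more in the higher set, the 15 largest increases and 10 largest decreases against other gated fibroblasts and the 5 largest each way elsewhere (with one direction in every library or groups without overlap), the 3 of lowest p by label and by interaction, and the up to 4 genes (by run, 2) of lowest p of each list, and other list genes are named after their values were seen. Single genes that meet this rule are not reported here. Shares were compared by exact permutation tests. Members were grouped with scanpy 1.11.5. Doublets were kept, since Scrublet marked 0.277% of cells, and an alternative left out the 6% of cells of highest doublet score in each library. The scripts were tested on simulated data. Alternatives were DESeq2 1.42.0, other scalings and filters, and leaving out each library. Pools of 3 animals are the replicates, and p-values are set against the spread between pools. The main fits by run had no label term and those by label no run term. Their spread therefore also holds differences between labels or between runs. Whether replicate numbers pair the libraries is not given in the labels. Correlations of deviations from the label mean, with the rest library of the same number, ran from -0.357 to 0.341. They were 0.341, 0.176 and 0.281 for peak replicate 1, resolving replicate 1 and peak replicate 2, which share a suffix run with that rest library. For the other pairs they were -0.357 to 0.247. Intervals cover counting error only. Gene positions are from GENCODE M21, which holds 27645 of 27998 gene IDs.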

Additional observations from a re-analysis of the deposited data

Results flagged for a closer look

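The change of 12 gene values between groups of libraries differed between members and other gated fibroblasts of the same libraries, as tested by an interaction in edgeR (difference of the log2 changes ± SE, members minus others). In resolved against rest joints these were 3 cartilage genes, Matn3 (5.46 ± 0.69, adjusted p = 0.0018), Mia (5.87 ± 0.85, adjusted p = 0.0076) and Col9a1 (6.08 ± 1.02, adjusted p = 0.037). Matn3 in members was at 8.13, 2.08 and 0 CPM at rest and 8.87, 2.72 and 27.5 CPM in resolved joints, against 754, 32.6 and 19.0 and 33.7, 25.7 and 25.0 CPM in the others. The 3 calls were lost without rest replicate 1 or resolved replicate 3, and that of Col9a1 also without rest replicate 3, peak replicate 2 or 3 or resolving replicate 3.

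With suffixes 4 to 6 against 1 to 3 the genes of lowest adjusted p were Ppa1, a pyrophosphatase (3.63 ± 0.24, adjusted p = 2.7e-09), Fbln2 (-1.46 ± 0.14, adjusted p = 2.2e-06) and Cthrc1 (2.86 ± 0.28, adjusted p = 2.2e-06). Ppa1 in the other gated fibroblasts was at 1148, 871 and 1268 CPM with suffixes 1 to 3 and 276, 230.5 and 201 CPM with suffixes 4 to 6, and in members at 127, 132 and 142 and 461, 308 and 351 CPM. With suffixes 7 to 9 they were Ppa1 (3.51 ± 0.26, adjusted p = 2.2e-08), Sulf2, a sulfatase of heparan sulfate (-1.94 ± 0.17, adjusted p = 2.9e-07), and Cthrc1 (2.46 ± 0.28, adjusted p = 2.9e-05), and with suffixes 10 to 12 Fxyd2 (5.17 ± 0.36, adjusted p = 9.5e-09), Ppa1 (3.29 ± 0.24, adjusted p = 1.1e-08) and Sfn (5.74 ± 0.67, adjusted p = 6.6e-05). The chondrocyte markers were at 47.6 to 7861 CPM in the other gated fibroblasts of single libraries. Their part in these differences was not tested.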

How the results depend on the processing

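Values are counts of genes unless stated. For members against other gated fibroblasts, 921 genes were lower with no library block, 1090 in cells thinned to 2000 UMIs, 1043 without cells carrying 3 markers of another class and 1088 in cells matched on UMIs. By label, no low-count filter gave 2 lower in peak, 6 higher and 1 lower in resolved and 1 lower in resolving joints, DESeq2 and the 6 libraries alone 1 lower each in peak, and the suffix run as a block 2 higher in resolved. For suffixes 4 to 6, members with 4 rule genes (11 libraries, without rest replicate 3, of suffix 9) gave 287 higher and 288 lower, cells without markers of another class 268 and 182, and the stage label as a term 326 lower. For suffixes 7 to 9 these were 63 and 33, 131 and 68, and 154 and 115, with 318 lower under no filter. For suffixes 10 to 12, no filter gave 150 and 39, DESeq2 43 and 8, the label term 13 and 0, 4 rule genes 8 and 1, no scaling 6 lower and the UMI limits of the study, which were matched to libraries by file name and would apply to others if labels and files were crossed, 5 lower. DESeq2 called 0 genes in the interaction of resolved joints and 27 in that of suffixes 10 to 12. The share of members with suffixes 10 to 12 minus 1 to 3 was 0.404 percentage points with 4 rule genes. It was negative in the other settings that kept every library.

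Leaving out each library in turn gave 775 to 889 higher and 1542 to 1674 lower against other gated fibroblasts, 979 to 1087 and 934 to 1091 against lining-gated cells, 344 to 425 and 519 to 579 against Ccl11-Smoc2 cells, and 0 to 0 for every label. Suffixes 4 to 6 gave 378 to 579 and 300 to 521, 7 to 9 gave 123 to 289 and 58 to 192, and 10 to 12 gave 7 to 35 and 0 to 4. Interactions gave 0 to 1, 0 to 2 and 1 to 9 for the labels and 162 to 334, 29 to 96 and 25 to 64 for the runs. Differences in share ran from 2.59 to 7.84, 4.34 to 9.53 and -1.33 to 3.89 percentage points for the labels and from -11.4 to -8.45, -11.0 to -8.05 and -2.28 to 0.689 for the runs.

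Of named genes, 10 values turned, none of them a call: Bub1 against other gated fibroblasts (0.20 in matched cells), Col9a3 with suffixes 10 to 12 (-1.17 with the label term, -2.62 to 2.11 leaving out libraries, turned without resolved replicate 3, -2.84 without markers of another class), Prg4 with suffixes 4 to 6 (-0.26 and -0.25 without peak replicates 1 and 2, up to 0.86 without others) and 10 to 12 (-0.12 without resolving replicate 3, up to 1.72 without others, -0.067 without markers of another class, -0.29 without members led by lining or endothelial genes), and Tspan15 with suffixes 7 to 9 (0.047 without resolved replicate 2, down to -1.77 without others). Elsewhere 6092 values kept direction and side of the threshold, 216 no longer passed and 53 newly passed. With the replicate number as a block 0 genes were called by label, and the share gave exact permutation p = 0.5, 0.25 and 0.75 over replicate pairs, where 0.25 is the smallest possible. The cause of these shifts was not tested. The member sums of 27 to 247 cells limit what genes of low level can show.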
